A study of Homo sapiens with 16 samples.

Results

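The endoplasmic reticulum (ER) chaperones and the unfolded protein response (UPR) were followed here through 34 genes, listed by name. No measured value enters the rule, but the list was drawn up with earlier results of these data known. All 34 symbols were found among the 63187 genes of the deposited count table, and 33 of them were among the 19530 genes that held enough counts to be tested. The exception was DERL3, a member of the derlin family of the ER membrane, which had 2 counts in 1 library and 0 in the other 15. RNA-seq was made from 16 samples of the human neuroblastoma line SK-N-BE(2). A group of 4 libraries is labelled WT, wild type. The others, also of 4 libraries each, received a form of HIF-2α, the oxygen-regulated transcription factor that EPAS1 encodes: the full-length protein (FL), a form labelled NCTAD (ΔN-CTAD in the design text) or a form labelled cIDR (there Δc-IDR). The library names differ from the sample titles: they read CTRL for the group titled WT and WT for FL. The titles are followed here. All groups grew at 21% oxygen and 37 °C with 10% serum, and each group had 1 library in each of 4 batches, since the labels give the replicate number also as the batch. The labels do not say whether WT cells received an empty vector, so transfection and HIF-2α cannot be told apart in any comparison with WT. They also do not say whether the libraries came from separate cultures, so a p-value here measures the spread between these libraries, which may in part be technical.

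Proteins that enter the secretory pathway are folded in the ER by chaperones, by enzymes that form disulfide bonds, and by quality control that sends failed products back to the cytosol for degradation (ER-associated degradation, ERAD). When unfolded protein builds up, the membrane sensors IRE1, PERK and ATF6 raise the capacity of the organelle: IRE1 splices the XBP1 transcript, ATF6 is cut and travels to the nucleus, and PERK slows translation and favours ATF4. ATF6 acts through the ER stress response element (ERSE), a CCAAT box and a CCACG box at a set spacing, in the promoters of chaperone genes.

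Promoter sequences of 31 of the 34 genes were found in RefSeq for GRCh38.p14, and the 250 bases before each start site were searched on both strands. ERSE, read as CCAAT, 9 bases of any kind and CCACG, was present in 7 of the 31 promoters (22.6%) and in 22 of the 27305 promoters of the whole table (0.0806%). The carriers were HSPA5, HSP90B1 (with 2 copies), CALR, CANX, CRELD2, XBP1 and ERO1B. The variant ERSE-II, ATTGG with 1 base between it and CCACG, was present in SDF2L1, HERPUD1 and HYOU1 (9.68% of the 31, against 0.0513% of all promoters). The core of the UPR element, TGACGTG, was found only in HYOU1 among the 31 (3.23%, against 1.71% of all), where it overlaps one of the 2 ERSE-II copies. The short cores to which HIF binds, ACGTG or GCGTG, stood in 27 of the 31 (87.1%) and in 43.1% of all promoters. Every TGACGTG holds ACGTG, and so does CCACG where TG follows it. These are matches of letters, not measured sites. The 4 promoters shown carry 1 exact ERSE match each, and looser matches were not counted. They belong to the 3 ERSE carriers that were lowest in batch 2 and to the carrier that was higher there. They are written along the gene, 5′ to 3′, with the 2 boxes in capitals. In CRELD2 and CALR the element lies on the opposite strand, so it reads CGTGG and then ATTGG. HSPA5 is at chr9:125241344-125241593, minus strand, CRELD2 at chr22:49918384-49918633, plus strand, CALR at chr19:12938359-12938608, plus strand, and XBP1 at chr22:28800570-28800819, minus strand.
HSPA5: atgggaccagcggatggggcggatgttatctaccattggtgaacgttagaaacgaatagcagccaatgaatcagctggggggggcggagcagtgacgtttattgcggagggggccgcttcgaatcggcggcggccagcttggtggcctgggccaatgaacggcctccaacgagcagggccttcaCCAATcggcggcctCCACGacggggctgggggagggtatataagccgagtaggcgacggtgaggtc
CRELD2: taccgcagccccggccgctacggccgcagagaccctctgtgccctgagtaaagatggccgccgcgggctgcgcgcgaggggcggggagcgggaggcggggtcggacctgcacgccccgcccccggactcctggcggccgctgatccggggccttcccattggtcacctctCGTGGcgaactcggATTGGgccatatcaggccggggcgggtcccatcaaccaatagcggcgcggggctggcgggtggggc
CALR: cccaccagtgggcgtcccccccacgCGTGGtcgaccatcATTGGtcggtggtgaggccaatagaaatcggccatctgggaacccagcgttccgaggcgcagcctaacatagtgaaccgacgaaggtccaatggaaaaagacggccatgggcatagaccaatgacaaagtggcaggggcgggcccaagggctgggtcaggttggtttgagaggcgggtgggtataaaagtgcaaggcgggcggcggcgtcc
XBP1: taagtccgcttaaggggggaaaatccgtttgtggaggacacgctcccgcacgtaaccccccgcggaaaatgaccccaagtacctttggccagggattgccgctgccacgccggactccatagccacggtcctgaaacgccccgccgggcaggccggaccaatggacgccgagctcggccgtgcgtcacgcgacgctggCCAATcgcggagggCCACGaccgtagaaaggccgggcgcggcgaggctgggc

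Libraries held 38.6 to 56.1 M counts (M for mega), of which the 34 genes together took 0.583% to 0.851%. EPAS1 was at 13.0 to 28.1 counts per 1 M counts (CPM) in WT, 1691 to 3580 in FL, 1320 to 4228 in NCTAD and 2189 to 5852 in cIDR, so no WT library overlapped a transfected one. Of the 10 adrenergic neuroblastoma markers checked, all 10 had a mean of at least 1 TPM (transcripts per 1 M, which corrects for length), with a summed level of 5827 to 7091 TPM. Of 10 mesenchymal markers 5 did, with a summed level of 116 to 144 TPM.

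Levels of the genes relative to each other were read in TPM. CALR, a lectin-like chaperone for glycoproteins, was the highest at 665 ± 124 TPM (SD, n = 16). It was followed by the disulfide isomerase PDIA3 at 506 ± 62.0 TPM, the membrane chaperone CANX at 444 ± 63.0, HSP90B1 at 415 ± 64.5 and HSPA5 at 375 ± 91.2. The ranges over libraries of these 5 neighbours in the order overlapped. The membrane sensors were far lower: ATF6 averaged 28.8 ± 4.45 TPM, EIF2AK3, which encodes PERK, 7.89 ± 1.37 and ERN1, which encodes IRE1, 1.18 ± 0.584. The oxidase ERO1A was at 62.5 ± 12.1 TPM and its paralog ERO1B at 0.555 ± 0.188, and their libraries did not overlap. DERL3 was at or under the level that a count of 0 allows: 3 counts correspond to 0.0535 to 0.0778 CPM in these libraries, a limit that covers counting error only.

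The levels followed the batch far more than the HIF-2α form. Batch took a median of 87.4% of the variance of log2 CPM over the 33 tested genes, against 53.8% over all 19530 tested genes, and group took 2.89%, against 7.85%. In HSPA5, the main ER chaperone of the HSP70 family, batch took 96.3% and group 2.60%. WFS1, an ER membrane protein mutated in Wolfram syndrome, went the other way, with 61.8% for group and 12.6% for batch. The summed level of the 34 genes was 3669 to 3979 TPM in the 4 libraries of batch 2, 4194 to 4464 in batch 1, 4738 to 5100 in batch 3 and 4849 to 5677 in batch 4. Batch 2 was therefore lowest in sum, and no library of batch 2 overlapped one of another batch.

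**Figure D1:**
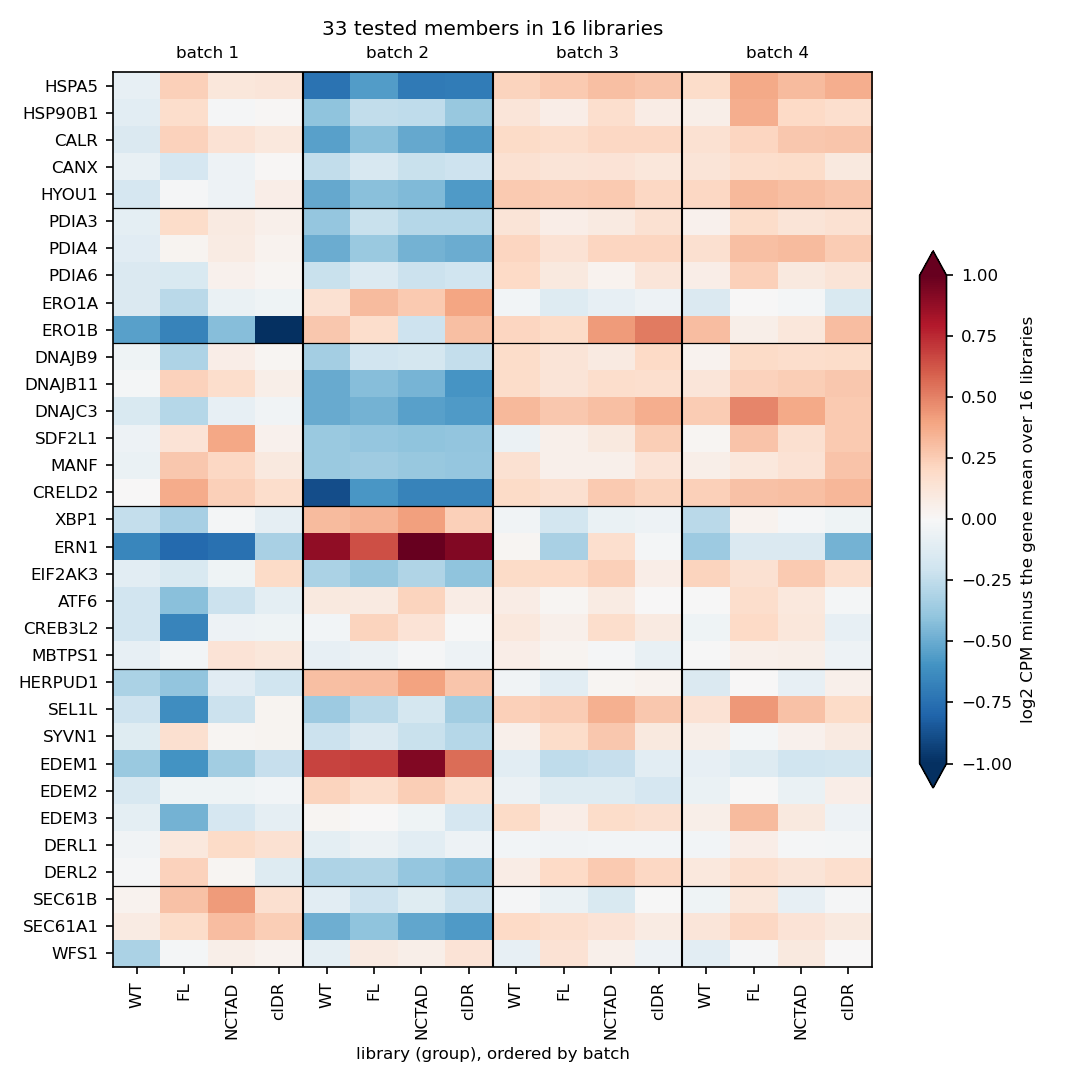
Log2 CPM of the 33 tested genes in the 16 libraries, each shown as its difference from the gene's mean over all libraries (color, clipped at 1 in either direction), with libraries ordered by batch and horizontal lines between roles. The chaperones and co-chaperones are blue in all 4 columns of batch 2, while ERN1, EDEM1, XBP1, HERPUD1, EDEM2 and ERO1A are red there. In batch 1 the groups differ in some genes, such as CREB3L2 and SEL1L, which are lowest in FL.

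Batch 2 was compared with batches 1, 3 and 4 by a term added to the group term in the quasi-likelihood test of edgeR, with p-values adjusted over all 19530 genes. Chaperones and co-chaperones were lower in batch 2 in every group, whereas the IRE1 gene ERN1, its target XBP1, 2 EDEM genes, HERPUD1 and ERO1A were higher. At an adjusted p under 0.05, 26 of the 33 genes were called, 6 higher and 20 lower. The background was high: 49.2% of all tested genes were called, 25.2% higher and 23.9% lower, so a call alone sets no gene apart. The median log2 fold change was −0.29 over the 33 genes and 0.030 over all genes. All 4 libraries of batch 2 lay above the other 12 in 6 of the 33 genes and below them in 16, against 14.4% and 14.6% of all genes. This sets 1 batch against 3, so its p-values cover the spread between libraries and not between independent batches, and whatever differed between batches cannot be told apart from batch 2 itself. In RNA from bulk cells, fewer cells of a kind and less RNA per cell cannot be told apart either.

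The 5 chaperones were all lower in batch 2, with a median log2 fold change of −0.65. HSPA5 stood at 435, 492, 444 and 448 CPM in the WT, FL, NCTAD and cIDR libraries of batch 2 and at a median of 862 (686 to 946) CPM in the other 12, where parentheses hold the lowest and the highest library here and for the other genes. Its batch 2 libraries were near 1 level whatever the HIF-2α form, and none reached the lowest of the others. The log2 fold change was −0.90 (SE 0.066, adjusted p = 2.27e-08 in edgeR), or 1.87-fold lower. CALR was at 553, 603, 566 and 548 CPM in the same 4 libraries and at 925 (731 to 978) elsewhere, with a log2 fold change of −0.68 (SE 0.060). HYOU1, a large HSP70-like protein that exchanges the nucleotide of HSPA5, was at 248, 265, 261 and 239 CPM against 416 (315 to 443), a log2 fold change of −0.65 (SE 0.086). In both genes batch 2 lay wholly below the rest. HSP90B1, the HSP90 of the ER, was at 603, 669, 665 and 612 CPM against 848 (736 to 1022), also without overlap, with a log2 fold change of −0.43 (SE 0.062). CANX had the smallest difference of the 5, −0.28 (SE 0.066), and its libraries overlapped, at 806, 852, 818 and 828 CPM against 1037 (850.4 to 1086). Adjusted p over the 5 was 2.27e-08 to 0.00215 in edgeR.

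All 6 co-chaperones and helpers were lower as well, with a median of −0.59. CRELD2, a small ER protein with disulfide isomerase activity that is secreted in part, was at 18.4, 22.7, 21.4 and 21.4 CPM in batch 2 and at 40.2 (34.003 to 44.1) in the other 12 libraries. Its log2 fold change of −0.94 (SE 0.058, adjusted p = 2.93e-09 in edgeR) was the lowest of the 33 genes, 1.91-fold lower, and the libraries did not overlap. The J-domain proteins, which hand clients to HSPA5, followed. DNAJC3 was at 43.3, 44.3, 42.2 and 41.5 CPM against 74.0 (50.4 to 86.1), a log2 fold change of −0.71 (SE 0.13). DNAJB11 was at 134, 141, 137 and 126 CPM against 214 (187 to 229), or −0.66 (SE 0.052) on the log2 scale. DNAJB9, which also restrains IRE1, was at 22.9, 25.3, 25.6 and 24.5 CPM against 31.2 (23.3 to 33.2), or −0.32 (SE 0.076) on the log2 scale. In all 3 the mean of batch 1 was also below those of batches 3 and 4, by the most in DNAJC3, and DNAJB9 was the 1 co-chaperone whose batch 2 libraries overlapped the rest. SDF2L1, which partners with DNAJB11, was at 29.3, 29.0, 28.8 and 28.9 CPM against 41.2 (36.6 to 49.6), or −0.52 (SE 0.067) on the log2 scale. MANF, a neurotrophic factor kept in the ER with HSPA5, was at 68.2, 69.0, 67.9 and 67.7 CPM against 96.0 (84.3 to 108), or −0.50 (SE 0.056) on the log2 scale. The 4 values of batch 2 were nearly equal in both genes. Adjusted p over the 6 was 2.93e-09 to 0.00263 in edgeR.

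**Figure D2:**
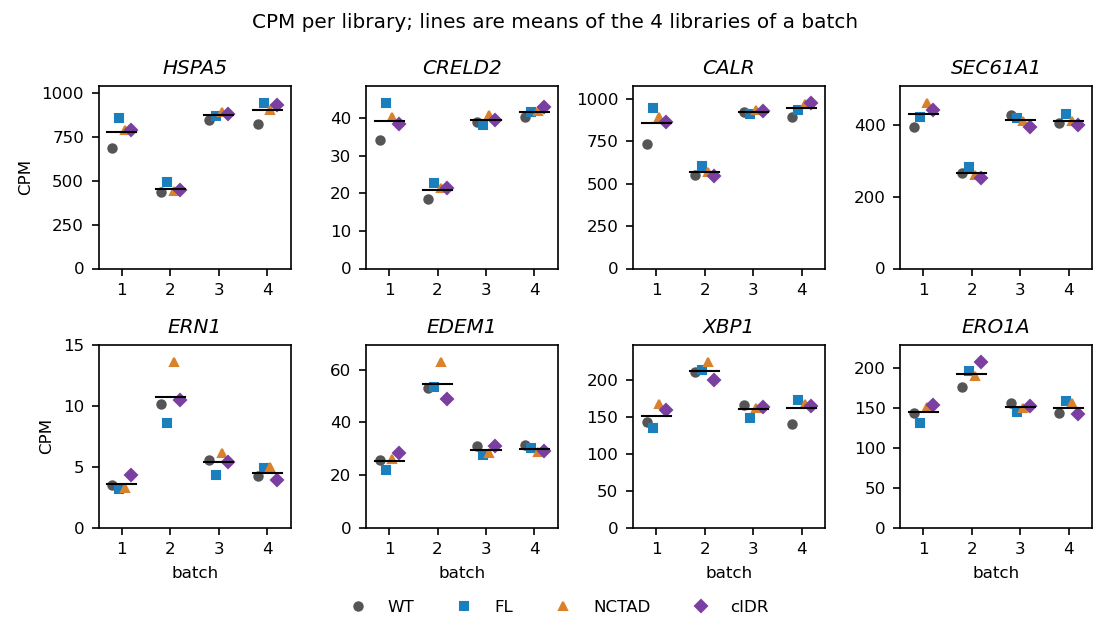
CPM of 8 genes in each library (symbols, by group) against batch, with a line at the mean of the 4 libraries of each batch; each vertical axis starts at 0. HSPA5, CRELD2, CALR and SEC61A1 fall in batch 2 and ERN1, EDEM1, XBP1 and ERO1A rise there, without overlap with the other 12 libraries in any of the 8.

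Among the genes of disulfide bond formation, 3 isomerases were lower and the oxidase ERO1A was higher. PDIA4 was at 163, 178, 166 and 164 CPM in batch 2 and at 262 (213 to 286) elsewhere, a log2 fold change of −0.61 (SE 0.070). PDIA3, which works with CALR and CANX, was at 453, 506, 487 and 485 CPM against 639 (554 to 674), or −0.40 (SE 0.047) on the log2 scale. PDIA6 was at 402, 428, 405 and 409 CPM against 496 (423 to 554), or −0.26 (SE 0.067) on the log2 scale. Only PDIA6 of the 3 overlapped. ERO1A, which passes electrons from the isomerases to oxygen and is a known hypoxia-inducible gene, was at 177, 197, 190.4 and 208 CPM against 151 (131 to 159), so every batch 2 library was above every other. Its log2 fold change was 0.37 (SE 0.051, adjusted p = 1.83e-05 in edgeR), or 1.30-fold higher. Its paralog ERO1B was not called: at 1.75, 1.64, 1.25 and 1.80 CPM against 1.61 (0.677 to 2.10) the libraries overlapped, and the log2 fold change was 0.12 (SE 0.25, adjusted p = 0.720 in edgeR). The difference between the paralogs' fold changes was not tested. Adjusted p over the 3 isomerases was 2.43e-06 to 0.00411 in edgeR.

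The sensors and factors did not move as 1 group in batch 2. ERN1 was at 10.2, 8.58, 13.6 and 10.5 CPM in batch 2 and at 4.36 (3.18 to 6.15) elsewhere. This was the largest rise of the 33 genes, 2.37-fold, with a log2 fold change of 1.24 (SE 0.15, adjusted p = 3.74e-06 in edgeR). XBP1 was at 211, 215, 226 and 200.4 CPM against 163 (135 to 174), a log2 fold change of 0.43 (SE 0.059, adjusted p = 1.72e-05 in edgeR). Neither gene overlapped. EIF2AK3 was lower, at 15.8, 15.1, 15.95 and 14.9 CPM against 22.2 (17.7 to 23.5), without overlap and with a log2 fold change of −0.47 (SE 0.078, adjusted p = 1.18e-04 in edgeR). ATF6 was not called, at 90.9, 90.7, 99.2 and 89.4 CPM against 85.3 (63.6 to 96.0), with 0.15 (SE 0.084, adjusted p = 0.149 in edgeR), although its batch 2 library was above the mean of the other 3 batches in all 4 groups. CREB3L2, a relative of ATF6, and MBTPS1, the protease that cuts ATF6, were not called either, with 0.10 (SE 0.11) and −0.068 (SE 0.046). These are levels of whole transcripts: splicing of XBP1, cutting of ATF6 and activation of IRE1 or PERK were not measured.

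The ERAD genes were split. EDEM1, a mannosidase-like protein that takes glycoproteins out of the folding cycle and a known target of spliced XBP1, was at 53.2, 53.5, 63.1 and 48.9 CPM in batch 2 and at 28.5 (21.9 to 31.3) elsewhere. It rose 1.93-fold, a log2 fold change of 0.95 (SE 0.079, adjusted p = 8.61e-08 in edgeR). HERPUD1, a scaffold of the ubiquitin ligase complex, was at 127, 128, 137 and 125 CPM against 96.7 (78.3 to 107), a log2 fold change of 0.42 (SE 0.069). EDEM2 was at 15.5, 15.04, 15.8 and 15.1 CPM against 12.8 (11.8 to 13.9), or 0.27 (SE 0.053) on the log2 scale. In all 3, the batch 2 libraries lay above the other 12. The derlin DERL2 was lower without overlap, at 15.7, 15.8, 14.9 and 14.5 CPM against 21.6 (17.8 to 23.4), or −0.48 (SE 0.065) on the log2 scale. So was SYVN1, the ubiquitin ligase HRD1, at 27.8, 29.1, 27.6 and 26.5 CPM against 33.4 (29.6 to 38.9), or −0.29 (SE 0.058) on the log2 scale. Its adaptor SEL1L was lower with overlap, at 45.5, 48.6, 51.6 and 45.9 CPM against 67.7 (38.0 to 79.1), or −0.41 (SE 0.15) on the log2 scale. SEL1L was no longer called when any 1 of the 4 batch 2 libraries was left out. EDEM3 was not called, with −0.078 (SE 0.10). Nor was DERL1, with −0.10 (SE 0.050), whose batch 2 libraries lay just below the rest in CPM, at 83.0, 85.3, 82.7 and 85.9 against 87.5 (86.8 to 102). Adjusted p over the 6 called genes was 8.61e-08 to 0.0278 in edgeR.

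In the translocon, the channel through which new proteins enter the ER, the pore subunit SEC61A1 was at 266, 281, 260.0 and 252 CPM in batch 2 and at 414 (394 to 462) elsewhere. Its log2 fold change was −0.66 (SE 0.050, adjusted p = 3.15e-08 in edgeR), or 1.58-fold lower, without overlap. The small subunit SEC61B moved less, at 82.4, 76.6, 81.7 and 76.3 CPM against 88.1 (79.7 to 119) with overlap, and was called narrowly, with a log2 fold change of −0.22 (SE 0.089, adjusted p = 0.0466 in edgeR). Its call was lost without any 1 of the 4 batch 2 libraries, without the WT library of batch 1 or 3, and without the cIDR library of batch 1. WFS1 was not called, with 0.062 (SE 0.049, adjusted p = 0.315 in edgeR). A term with all 4 batches called 28 of the 33 genes, ATF6 (higher) and DERL1 (lower) being the 2 added, and 53.9% of all genes. Of the 26 calls over all roles, 20 held with limma on log2(TPM + 1), 6 higher and 14 lower. The share of all genes that limma called is not given here. CANX, PDIA6, DNAJB9, SEL1L, SYVN1 and SEC61B were no longer called there, and DERL1 turned to 0.19.

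**Figure D3:**
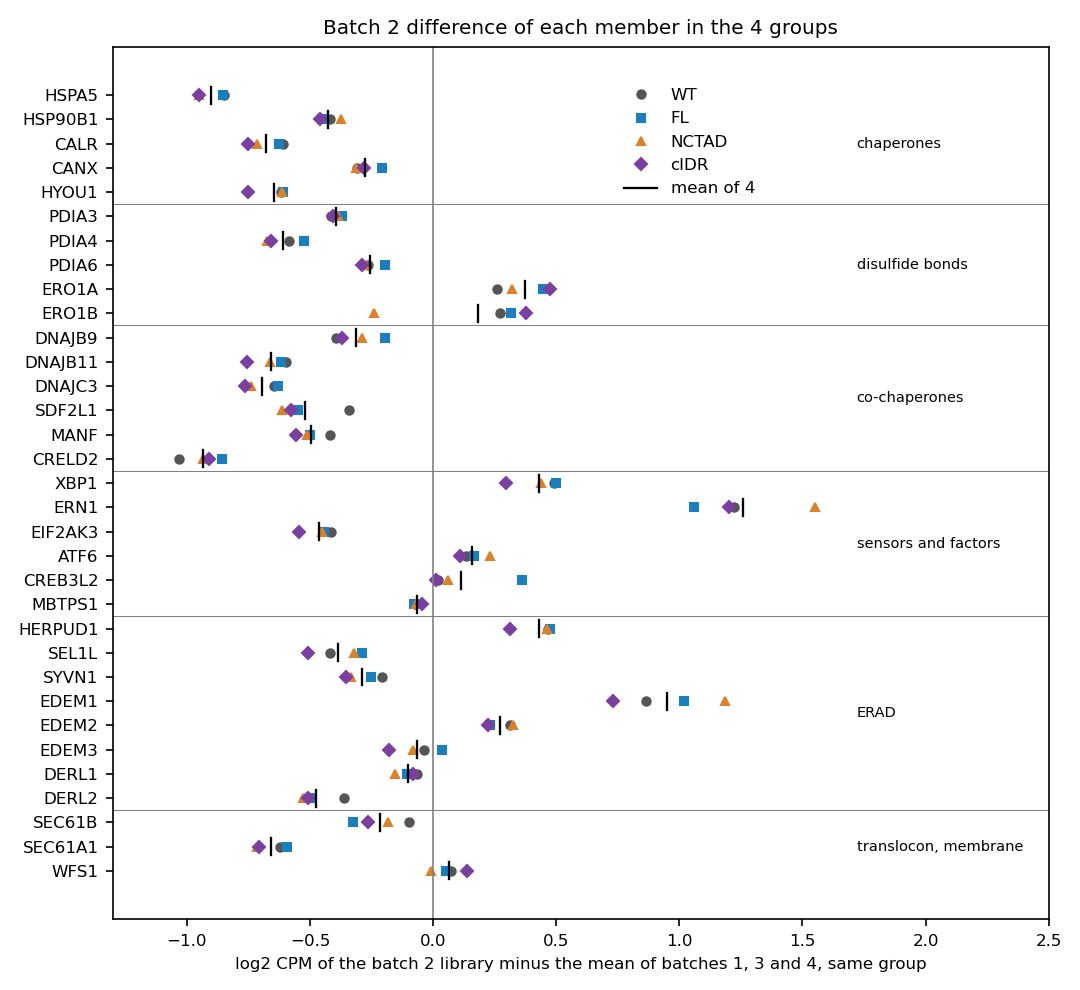
Log2 CPM of the batch 2 library minus the mean of batches 1, 3 and 4 in the same group, for the 33 tested genes by role (symbols, by group; black line, mean of the 4 groups). In 22 genes all 4 groups are below 0 and in 8 all 4 are above 0, where the share of all genes was not computed. The spread between groups is small beside the difference in HSPA5, CRELD2, EDEM1 and ERN1.

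The batch 2 difference was repeated in each of the 4 groups. Within a group, the batch 2 library was below the mean of the other 3 batches in 4 of 4 groups for 22 genes and above it in 4 of 4 for 8, and 3 genes were mixed. The share of all genes with such a pattern was not computed, so these counts set no gene apart. In HSPA5 the 4 differences averaged −0.90 ± 0.058 on the log2 scale (SD, n = 4), in CRELD2 −0.93 ± 0.073, in EDEM1 0.95 ± 0.20 and in ERN1 1.26 ± 0.21. The WT libraries showed the difference as well, with −0.85 in HSPA5 and 1.22 in ERN1. The 3 other batches were not equal for every gene. ERO1B was at 0.981, 0.898, 1.07 and 0.677 CPM in the WT, FL, NCTAD and cIDR libraries of batch 1 and at 1.25 to 2.10 CPM in all others. The means of batches 1, 3 and 4 spanned 0.59 on the log2 scale in ERN1, 0.53 in SEL1L and 0.48 in DNAJC3. Of the 26 called genes, SEL1L and SEC61B had a span larger than the mean batch 2 difference itself. SEL1L averaged 5.62 log2 CPM in batch 1, 5.58 in batch 2, 6.15 in batch 3 and 6.14 in batch 4, so batches 1 and 2 were both low. SEC61B spanned 0.29, with 6.70 log2 CPM in batch 1, and its batch 2 difference averaged −0.22 ± 0.10 (SD, n = 4).

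Genes near these 34 in function were taken from lists made by function, also with earlier results of these data known, so their directions are no independent evidence. In batch 2 the other genes of ER folding, ERAD and translocation were more often lower than higher, and those of the list named PERK-ATF4 were higher. Of 35 other ER folding genes, 2 were higher in batch 2 and 16 lower (median −0.13). These are 51.4% of the list, near the 49.2% called among all genes, where 25.2% were higher and 23.9% lower. The 3 with the smallest adjusted p among the lower were CNPY3 (−0.50), P4HB (−0.36), a major disulfide isomerase, and TXNDC5 (−0.42), and the 2 higher were QSOX1 (0.42) and PDIA5 (0.18). Of 24 other ERAD genes, 3 were higher (HERPUD2, NGLY1 and FAM8A1) and 14 lower (70.8% called, median −0.22), among the lower VCP (−0.57), the ATPase that extracts ERAD substrates, and UBXN8 (−0.53). Of 25 genes of translocation and N-glycosylation, 20 were lower (80.0% called, median −0.23) and the other 5 were not called. SRPRB (−0.72), a subunit of the receptor of the signal recognition particle, STT3A (−0.65), a catalytic subunit of the oligosaccharyltransferase, and SPCS2 (−0.47) led these. Among 12 tested UPR regulators outside the 34, 2 were higher, BBC3 (1.12) and CREB3L4 (0.31), and 6 were lower, led by NFYC (−0.37), a subunit of the factor that binds CCAAT boxes, RTCB (−0.33), which ligates XBP1 after splicing, and TRAF2 (−0.29). Together these were 66.7% of the list.

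The PERK-ATF4 list went the other way in full: 19 of its 19 tested genes were higher in batch 2, with a median log2 fold change of 1.20, where 25.2% of all genes were called higher. The list is named for PERK and ATF4, but PERK activity was not measured and what raised these genes was not tested. The PERK gene EIF2AK3 was itself lower in batch 2 (−0.47). CHAC1, which degrades glutathione, was at 138, 137, 145 and 135 CPM in the WT, FL, NCTAD and cIDR libraries of batch 2 and at 10.4 (8.83 to 11.9) elsewhere. It was 13.2-fold higher, with a log2 fold change of 3.72 (SE 0.055, adjusted p = 7.46e-17 in edgeR). DDIT4, an inhibitor of mTORC1 that also responds to hypoxia, was 7.16-fold higher and TRIB3, a pseudokinase induced by ATF4, 4.59-fold, and none of the 3 overlapped. ATF4, outside the rule for named genes and chosen after its values were seen, was at 694, 682, 717 and 712 CPM against 417 (402 to 542), a log2 fold change of 0.67 (SE 0.074, adjusted p = 1.79e-06 in edgeR). Hypoxia genes, a class to which ERO1A and DDIT4 are also counted, rose in the same libraries: edgeR called 23 of 25 higher (92.0%), with a median of 1.25, and did not call the other 2. PDK1 (2.81), PFKFB4 (2.23) and BNIP3 (1.73) had the smallest adjusted p. The summed level of the 25 hypoxia genes was 1845 to 2499 TPM in batch 2 and 867 to 1149 TPM in the other batches, while all batches carry the same oxygen label. Neuroblastoma markers were mixed, with 4 of 10 higher, TH among them (2.14), and 4 lower, GATA3 among them (−0.80), or 80.0% called. Of 7 tested mesenchymal markers, COL1A1 was higher (1.31) and CD44 and SNAI2 were lower (−0.58 and −1.20), or 42.9% called, against 49.2% of all genes. The part of the hypoxia genes or of these markers in the ER differences was not tested.

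**Figure D4:**
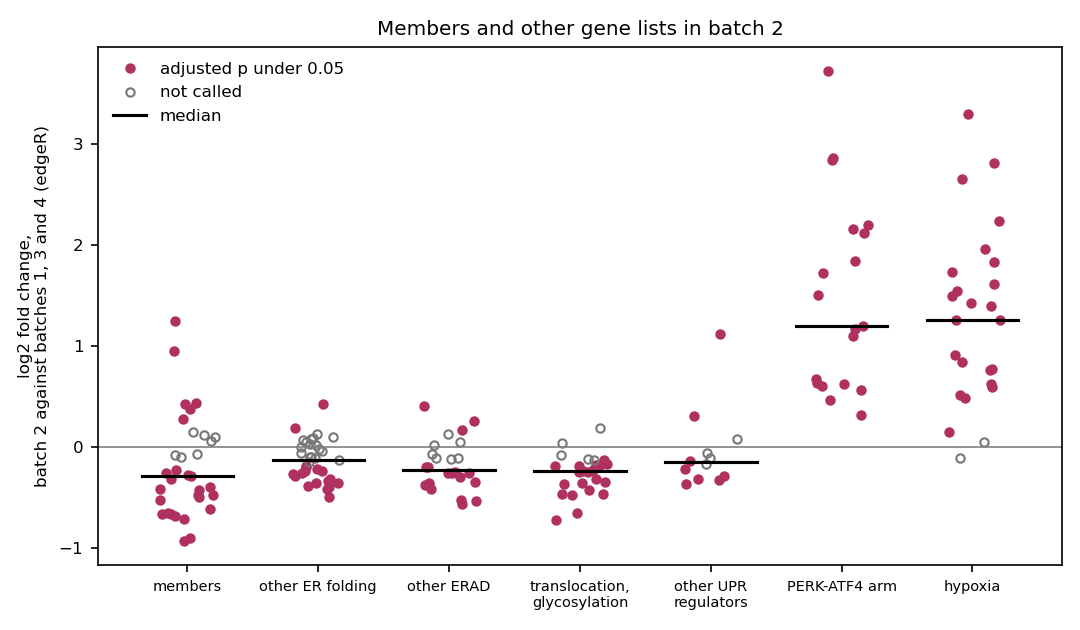
Log2 fold change of batch 2 against batches 1, 3 and 4 from edgeR (vertical axis) for the 33 tested genes and 6 lists (1 point a gene, spread sideways at random; filled, adjusted p under 0.05; line, median). The ER lists center below 0, at −0.13 to −0.29, and the PERK-ATF4 and hypoxia lists at 1.20 and 1.25.

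Read against the promoters shown at the outset, 5 of the 7 genes with ERSE were lower in batch 2 (HSPA5, HSP90B1, CALR, CANX and CRELD2), XBP1 was higher and ERO1B was not called. Their median log2 fold change was −0.43. The 24 matched genes without ERSE had 5 higher and 14 lower, with a median of −0.27. Among all genes 25.2% were higher and 23.9% lower. With ERSE-II, SDF2L1 and HYOU1 were lower and HERPUD1 higher. The only exact ERSE match begins 66 bases before the start site in HSPA5 and 52 bases before it in XBP1, on the same strand. HSPA5 was 1.87-fold lower and XBP1 1.35-fold higher in the same libraries. Looser matches to the element were not counted in either promoter. The carriers of an exact match thus did not share 1 direction.

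Between HIF-2α forms, none of the 33 genes was called in any of the 6 comparisons by edgeR, without or with the batch as a block. Few genes of any kind were called. The share of all 19530 tested genes was 0.0102% for FL against WT, 0.0256% for NCTAD against WT and 0.0102% for cIDR against WT. With the batch as a block it was 0.102%, 0.456% and 0.486%. In all 3 comparisons between constructs the share was 0%. With the block it was 0% when NCTAD was set against FL, 0.0307% when cIDR was set against FL and 0.00512% when cIDR was set against NCTAD. At an unadjusted p under 0.05, without the block, 1 of the 33 passed in each comparison with WT, where 1.14% (FL), 1.42% (NCTAD) and 1.37% (cIDR) of all genes did. Between constructs 0 passed, against 0.886% for NCTAD over FL, 0.906% for cIDR over FL and 0.609% for cIDR over NCTAD. With the block 6 passed for FL against WT (5.11% of all genes), 4 for NCTAD (5.96%) and 2 for cIDR (5.45%). Between constructs, with the block, 1 passed for NCTAD over FL (3.69%), 1 for cIDR over FL (3.68%) and 0 for cIDR over NCTAD (2.15%). DESeq2 and limma also called 0 in all 6.

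Differences from WT were small and mostly upward in CPM. The log2 fold changes of the 33 genes ran from −0.15 to 0.20 for FL (median 0.038), from −0.087 to 0.26 for NCTAD (median 0.070) and from −0.077 to 0.18 for cIDR (median 0.046), where all genes had medians of 0.014, 0.019 and 0.0097. They were above 0 in 26, 31 and 29 of the 33 genes, against 54.4%, 57.3% and 53.7% of all genes. On log2(TPM + 1) the medians were −0.019 for NCTAD and −0.047 for cIDR and slightly below 0 for FL, so the upward direction depends on the scale. The 3 comparisons share the WT libraries. Within batches, 3 of the 33 genes were higher than WT in 4 of 4 batches in FL, 9 in NCTAD and 7 in cIDR, where 5.35%, 8.86% and 10.6% of all genes were.

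**Figure D5:**
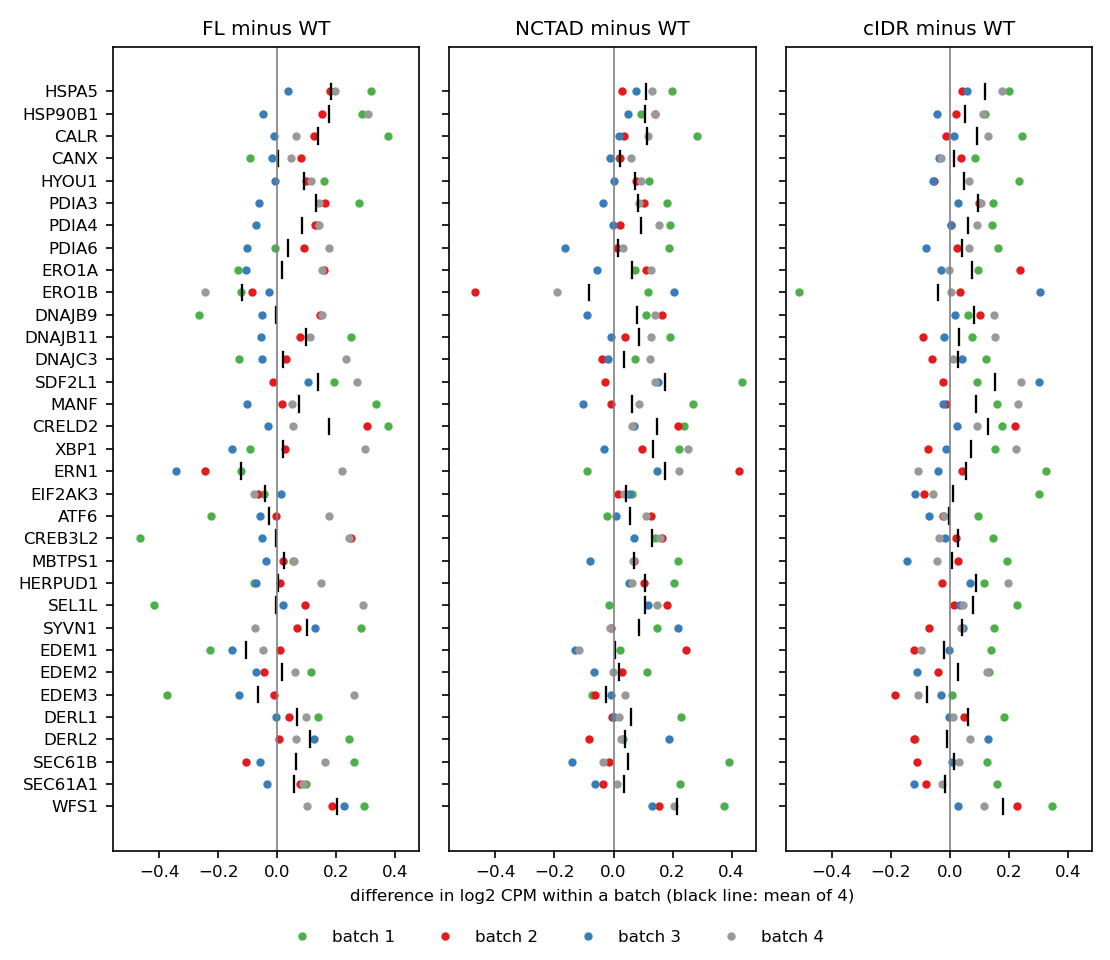
Difference in log2 CPM between a construct library and the WT library of the same batch (horizontal axis; points colored by batch, black line at the mean of 4) for the 33 tested genes and the 3 constructs. Most points lie close to 0, and only WFS1 and HSPA5 have all 4 batches above 0 in all 3 panels.

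WFS1 was the single gene of the 33 whose construct libraries did not overlap WT in CPM. It stood at 61.0, 71.0, 71.7 and 70.3 CPM in WT in batches 1 to 4. The FL libraries had 74.8, 80.7, 83.9 and 75.3 CPM, the NCTAD libraries 79.0, 78.9, 78.6 and 81.0 and the cIDR libraries 77.5, 83.2, 73.2 and 76.1. All 12 transfected libraries were thus above all 4 of WT in CPM, a separation shown upward by 0.456% of all genes for FL, 0.876% for NCTAD and 0.876% for cIDR. In TPM each construct overlapped WT. WT reached 33.1 TPM there, and the lowest libraries were at 28.7 in FL, 30.3 in NCTAD and 32.4 in cIDR. The log2 fold changes were 0.20, 0.21 and 0.18, each with an SE of 0.070. They did not pass: the adjusted p in edgeR rounded to 1 for all 3, and with the block it was 0.521, 0.203 and 0.435. The lowest WT library, that of batch 1, lay apart from the other 3.

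HSPA5 was higher than WT in 4 of 4 batches with each construct in CPM, though the groups overlapped. In TPM this did not hold for NCTAD and cIDR. NCTAD was below WT in batch 1 (350.5 against 355.0 TPM). So was cIDR in batch 2 (231 against 234) and batch 3 (429 against 441). Within batches 1 to 4, FL minus WT was 0.32, 0.18, 0.037 and 0.20 on the log2 scale, a mean of 0.18 ± 0.12 (SD, n = 4). NCTAD minus WT averaged 0.11 ± 0.072 (SD, n = 4) and cIDR minus WT 0.12 ± 0.081 (SD, n = 4). With the block, the adjusted p in edgeR was 0.435 for FL, 0.821 for NCTAD and 0.823 for cIDR, so none passed. CRELD2 differed from WT by 0.18 ± 0.19 (SD, n = 4) in FL, with batches from −0.031 to 0.37. SDF2L1 differed by 0.17 ± 0.19 (SD, n = 4) in NCTAD. ERN1 had no common sign, with −0.12, −0.24, −0.34 and 0.22 for FL and −0.090, 0.42, 0.15 and 0.22 for NCTAD in batches 1 to 4. ERO1A, the member with the closest known tie to hypoxia, differed from WT by 0.017 ± 0.16 (SD, n = 4) in FL, 0.063 ± 0.083 (SD, n = 4) in NCTAD and 0.076 ± 0.12 (SD, n = 4) in cIDR, within the spread between batches in each case. Its sign was negative for all 3 constructs on log2(TPM + 1), so no direction is given.

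With the batch as a block, edgeR called 6 of the 25 hypoxia genes higher than WT in NCTAD and 13 in cIDR, where 0.456% and 0.486% of all genes were called in either direction. In FL it called 0, where 9 had an unadjusted p under 0.05 (5.11% of all genes), and without the block it called 0 in each of the 3, where 2 had one for FL (1.14% of all genes), 2 for NCTAD (1.42%) and 5 for cIDR (1.37%). VEGFA, the endothelial growth factor, was higher than WT by 1.05 (SE 0.11, adjusted p = 0.000350 in edgeR) in NCTAD. In cIDR, PFKFB4, an enzyme that sets glycolytic flux, was higher by 0.67 (SE 0.069, adjusted p = 0.000314 in edgeR). Between constructs, with the block, 1 of the 25 hypoxia genes was called for cIDR over FL (0.0307% of all genes). For NCTAD over FL (0%) and cIDR over NCTAD (0.00512%) 0 were called. At an unadjusted p under 0.05, 3 of them passed for NCTAD over FL (3.69% of all genes) and 14 for cIDR over FL (3.68%). For cIDR over NCTAD 10 did (2.15%). DDIT4 was the only gene of the PERK-ATF4 list called in any comparison between HIF-2α forms, at 0.31 (SE 0.052, adjusted p = 0.0105 in edgeR) for cIDR against WT with the block. At an unadjusted p under 0.05 with the block, 2 of the 19 genes of that list passed for FL against WT (5.11% of all genes), 6 for NCTAD (5.96%) and 3 for cIDR (5.45%). Between constructs 4 passed for NCTAD over FL (3.69%), 3 for cIDR over FL (3.68%) and 1 for cIDR over NCTAD (2.15%). The medians of the list were 0.0032, 0.11 and 0.064 against WT, and 0.10, 0.078 and −0.044 between constructs. Of the other ER folding, ERAD, translocation and UPR regulator genes, 0 were called in these 6 comparisons by edgeR without or with the block. At an unadjusted p under 0.05 with the block, 5 of 35, 4 of 24, 1 of 25 and 0 of 12 of these genes passed for FL against WT, where 5.11% of all genes did, and at most 2 of each of these 4 lists did in any other comparison. Without the block, at most 1 of each did.

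Leaving batch 2 out whole, an alternative added after the data were seen, left 0 of the 33 genes called in each of the 6 comparisons by edgeR, without and with the block. The medians against WT were then 0.015 for FL, 0.071 for NCTAD and 0.055 for cIDR, where they were 0.038, 0.070 and 0.046 with batch 2. For reads shared with near-identical copies, the pseudogene PDIA3P1 held 522 to 921 counts where PDIA3 held at least 22690, and HSPA5P1 held 202 to 458 where HSPA5 held at least 22002. The divergent transcript DNAJC3-DT held 275 to 475 counts beside at least 2077 of DNAJC3, and the strand setting of the counting is not given in the sources used here.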

How the data were processed

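The measure was poly(A)-selected stranded RNA-seq of 16 libraries. The authors deposited estimated counts and TPM per gene in 1 table each, written by Salmon per the file names. Per the submitters' processing notes fastp, STAR, Salmon and featureCounts were used with the build GRCh38, and their versions are not given in the sources used here. The estimated counts were rounded to whole numbers (15.5% of values had been fractional). After filterByExpr by group, 19530 genes were fitted in edgeR 4.0.16 (R 4.3.3) with TMM scaling, its quasi-likelihood F test and Benjamini-Hochberg adjustment over all of them. Each SE was taken from the log2 fold change and F. Groups were the only term for the 6 comparisons of HIF-2α forms, and batch 2 was a 2-level term added to them. CPM use TMM-scaled totals, with a prior count of 2 for log2 CPM. The members and lists were chosen with earlier results of these data known. Full values were given for every member called, for the pair ERO1A and ERO1B, and for the sensors. From each list up to 3 genes per direction with the smallest adjusted p were named, except 1 gene that is not reported here.

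The labels tie each replicate number to a batch, so same-numbered libraries were taken as paired. Their deviations from the group means correlated with a mean r of 0.308 (0.0674 to 0.712), against −0.0945 for different numbers. The biological coefficient of variation was 0.245 without and 0.108 with the block. No libraries of a group were copies, with a chi-square per degree of freedom of at least 6.89. Alternatives were the block, a 4-level batch term, median-of-ratios size factors, no low-count filter, only the 8 libraries compared, DESeq2 1.42.0, limma 3.58.1 on log2(TPM + 1) and log2(TPM + 0.1), and leaving out libraries, batches or groups. Scripts were checked on simulated data. Figures were drawn with matplotlib 3.10.9 (Python 3.11.15).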

Additional observations from a re-analysis of the deposited data

Results flagged for a closer look

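Within each group of 4 libraries, the log2 CPM of each of the 33 tested genes was checked for 1 library far from the other 3, by a rule that chance meets in about 1 group of 20. Of 132 groups, 22 met it, in 14 genes, and the odd library belonged to batch 2 in 15 and to batch 1 in 7. These are not independent checks, since the 33 genes share the libraries.

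In batch 2, 8 of the 15 were low chaperones or co-chaperones or PDIA3. HSPA5 was at 8.94 log2 CPM in FL. CALR was at 9.24 in FL and 9.15 in NCTAD. DNAJB11 was at 7.14 in FL and 7.10 in NCTAD, and CRELD2 at 4.42 in both NCTAD and cIDR. PDIA3 was at 8.93 in NCTAD. SEC61A1 at 8.14 and DERL2 at 3.99 in FL were low as well, and DERL1 in WT was low at 6.38, only slightly below the next library at 6.44. XBP1 was high at 7.82 in NCTAD and 7.65 in cIDR, and EDEM1 was high at 5.98 in NCTAD and 5.61 in cIDR.

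In batch 1, ERO1B was low at 0.033 log2 CPM in WT, −0.089 in FL and −0.48 in cIDR, where the next libraries were at 0.79, 0.64 and 0.88. WFS1 was low at 5.93 in WT, with the next library at 6.14. High libraries of batch 1 were SEC61B in NCTAD at 6.89, DERL1 in cIDR at 6.62 and MBTPS1 in cIDR at 7.24. The low WFS1 library enters the comparison of each HIF-2α form with WT. Without WT replicate 1, the log2 fold changes of WFS1 were 0.15 for FL, 0.16 for NCTAD and 0.13 for cIDR.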

How the results depend on the processing

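The count of 26 genes called in batch 2 was 28 with a 4-level batch term (7 higher and 21 lower, where 53.9% of all genes were called), 27 with DESeq2, 20 with limma on log2(TPM + 1) as on log2(TPM + 0.1), and 24 to 26 with 1 library left out. Leaving out batch 1, 3 or 4 whole gave 27, 25 and 24, and leaving out 1 group gave 24 or 25. Beside the counts of 26 and 28 stand 49.2% and 53.9% of all genes. Shares for the other fits are not given here, so their counts set no gene apart. The count of 0 for each comparison of HIF-2α forms stayed 0 under all alternatives run. With the replicate block HSPA5 in FL against WT was 0.18 and WFS1 0.20, against 0.18 and 0.20 without it, and the block changed no call among the 33 genes. On log2(TPM + 1) and log2(TPM + 0.1), DERL1 in batch 2 turned to 0.19 and 0.19, and ERO1A turned to −0.11 and −0.11 in FL, −0.056 and −0.057 in NCTAD, and −0.060 and −0.061 in cIDR against WT. ERO1B in batch 2 turned to −0.13 without batch 1, and ERO1A in FL against WT to −0.051 without batch 2 and −0.052 with the block as well. With 1 library left out, without or with the block, differences from WT crossed 0 for HSPA5 in NCTAD (−0.055 to 0.30) and cIDR (−0.043 to 0.31). They did so for CRELD2 in FL (−0.041 to 0.33), NCTAD (−0.063 to 0.32) and cIDR (−0.084 to 0.29), for ERN1 in FL (−0.49 to 0.26), NCTAD (−0.29 to 0.67) and cIDR (−0.36 to 0.45; with the block −0.059 without cIDR replicate 1), and for ERO1A in FL (−0.094 to 0.098; with the block −0.019 without WT replicate 2 and −0.0044 without FL replicate 2), NCTAD (−0.022 to 0.13) and cIDR (−0.049 to 0.16). Without the block, a left-out batch 2 library unbalances the batches by construction. For the TPM differences the cause was not tested. Depth limits the genes with few counts, ERO1B and DERL3.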

Other observations

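TH and DBH, 2 enzymes of noradrenaline synthesis among the 10 neuroblastoma markers, were picked from that list after their values were seen. The list as a whole had no common direction in batch 2, with 4 higher, 4 lower (GATA3, GATA2, ISL1 and CHGA) and a median log2 fold change of −0.0010, where 25.2% of all genes were higher and 23.9% lower. Against WT with the batch as a block, TH and DBH were the 2 of 10 called in NCTAD and in cIDR, where 0.456% and 0.486% of all genes were called and the medians of the list were 0.050 and 0.054. TH, tyrosine hydroxylase, was at 5.68, 9.36, 10.2 and 10.1 CPM in the WT, FL, NCTAD and cIDR libraries of batch 2 and at 2.04 (0.856 to 3.60) CPM in the other 12, without overlap, a log2 fold change of 2.14 (SE 0.14, adjusted p = 4.06e-09 in edgeR). DBH, dopamine beta-hydroxylase, was at 495, 701, 725 and 695 CPM in batch 2 and at 405 (293 to 519.8) CPM elsewhere, with overlap, a log2 fold change of 0.69 (SE 0.063, adjusted p = 2.40e-07 in edgeR). With the batch as a block, TH was higher than WT by 1.27 (SE 0.17, adjusted p = 0.00220 in edgeR) in NCTAD and by 1.06 (SE 0.17, adjusted p = 0.00953 in edgeR) in cIDR. DBH was higher than WT by 0.61 (SE 0.067, adjusted p = 0.000350 in edgeR) in NCTAD and by 0.51 (SE 0.066, adjusted p = 0.00131 in edgeR) in cIDR. In FL, TH had 0.83 (SE 0.17, adjusted p = 0.121 in edgeR) and DBH 0.36 (SE 0.066, adjusted p = 0.0681 in edgeR), which did not pass. Both genes were above WT in 4 of 4 batches for each of the 3 forms. Between the forms neither was called with the block, with adjusted p of at least 0.996 in edgeR. Without the block neither was called against WT, where DBH had an unadjusted p of 0.0225 for NCTAD and 0.0480 for cIDR in edgeR.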
